A study of Mus musculus with 10 samples.

Results

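The genes described here are the medium-chain acyl-CoA synthetases Acsm1, Acsm2, Acsm3 and Acsm5 and the glycine N-acyltransferase genes Glyat and Keg1 of the mouse kidney. They were chosen by name from the deposited gene table, and make up 6 of its 54532 genes. Medium-chain acyl-CoA synthetases sit in mitochondria and join medium-chain fatty acids and aromatic acids such as benzoate to coenzyme A. Glycine N-acyltransferase then moves the acyl group to glycine, which gives hippurate and related acylglycines that the tubule secretes into urine. In the kidney this detoxification pathway belongs mainly to the proximal tubule, the segment that reabsorbs most of the filtrate and runs on fatty acids.

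Bulk RNA sequencing was done on kidneys of wild-type male C57BL/6 mice that had unilateral ureteral obstruction (UUO) of the left ureter at 8 weeks of age and were killed 14 days later. Every mouse in both groups had the obstruction, so that no unobstructed kidney enters the comparison. The DMM group (n = 5) received dimethyl malonate, an ester that releases the succinate dehydrogenase inhibitor malonate, at 40 mg/kg into the peritoneum every other day, and the control group (n = 5) received PBS. Total counts of reads on genes were between 16457495 and 18078777 per control library (median 17825223) and between 15722527 and 19475833 per DMM library (median 16794390). The comparison asks how DMM changes the transcripts of the obstructed kidney. Values below are read counts scaled to library size with TMM (CPM) or, where genes are compared with each other, the authors' FPKM, which also divides by gene length.

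Libraries of 3 mice stood apart, control 3 and DMM 1 from their groups and DMM 4 from all others. In control 3, the mean log2 CPM of 16 proximal tubule markers was 1.13 above the control mean, against -1.03 to 0.09 in the other 4 controls. In DMM 1 the same mean was -0.40, against 0.55 to 1.34 in the other 4 DMM libraries. DMM 1 also went against its group in 12 interferon response genes, whose mean was -0.11 relative to the control mean in DMM 1 and -3.40 to -2.85 in the other DMM libraries. In these genes control 3, at -0.28, lay within the range of the other controls (-0.39 to 0.28). Over all tested genes, the log2 CPM of DMM 1 correlated best with control 5 (Pearson r = 0.989) and that of control 3 with DMM 2 (r = 0.982). DMM 4 correlated less with any library (highest r = 0.921, with DMM 2) than the other 9 did with their closest (0.982 or more), and its TMM factor of 0.852 was the lowest. The authors' deposited group means give control 3 and DMM 1 a weight of 0, although 5 replicates per group are stated. Results for the 6 genes are therefore given over all 10 libraries and over the other 8, which hold 4 mice a group and include DMM 4.

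Over all 10 libraries, edgeR's quasi-likelihood test called 0 of 16505 tested genes higher in DMM (percent called 0) and 0 lower, where a call needs an adjusted p (Benjamini-Hochberg) under 0.05 and more than a 1.5-fold difference. DESeq2 called 14 genes higher and 36 lower on the same counts. All 6 Acsm and glycine transferase genes were tested, and 0 were called by either tool. All 6 had a fitted fold change above 1, with a median log2 fold change of 0.60, against 0.02 for all tested genes. At an unadjusted p under 0.05 with the same fold, 1 of the 6 passed (Glyat), where 315 of all tested genes did so higher (1.91%) and 678 lower. Over the 8 libraries, 3 of the 6 were called higher (Acsm5, Glyat and Keg1) where 452 of 16550 tested genes were (2.73%). At an unadjusted p, 5 of the 6 passed, all but Acsm3, against 6.45% of tested genes. Without DMM 4 as well, a set chosen after the values were seen, 5 of the 6 were called, again all but Acsm3. So were 1129 of all tested genes (6.71%), and the difference between these shares was not tested. The median log2 fold change of the 6 was 1.15 over the 8 libraries, against 0.02 for all tested genes.

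Acsm2, the most abundant of these synthetases, activates benzoate and medium-chain fatty acids. Its level was 465, 428, 1293, 169.9 and 379 CPM in controls 1 to 5 and 333, 935, 677, 643 and 1011 CPM in DMM 1 to 5. Control 3 was the highest of all 10 libraries, DMM 1 lay among the other controls, and the groups overlapped. Without these 2 libraries every DMM value was above every control value. The means were 547 ± 432 (SD, n = 5) CPM in controls and 720 ± 269 (SD, n = 5) CPM in DMM kidneys. The fitted difference was 0.40 on the log2 scale (standard error 0.47), with an adjusted p of 0.742 from edgeR. Over the 8 libraries they were 360.4 ± 132 and 817 ± 184 (SD, n = 4) CPM, and the log2 fold change was 1.18 (standard error 0.30). Its adjusted p of 0.0509 from edgeR over the 8 libraries missed the threshold narrowly. In settings over the 8 chosen after the values were seen, it passed with DESeq2 or RLE size factors and failed with library size alone (adjusted p = 0.0801). Of the 8 sets that left out 1 of these libraries, it passed in 1, without DMM 4.

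Acsm1 is a synthetase also known for activating butyrate. Its level was 23.6, 24.0, 43.9, 8.14 and 15.0 CPM in controls 1 to 5 and 16.3, 36.1, 36.7, 23.0 and 58.5 CPM in DMM 1 to 5. DMM 5 was highest and control 4 lowest, and DMM 4 lay below controls 1 and 2, so that the groups overlapped with and without control 3 and DMM 1. The log2 fold change was 0.57 (standard error 0.43, adjusted p = 0.598 from edgeR) over all 10 libraries and 1.12 (standard error 0.37, adjusted p = 0.116) over 8.

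Acsm5, another medium-chain synthetase and the least abundant of the 6 per length, had 15.6, 12.9, 34.7, 7.34 and 9.41 CPM in controls 1 to 5 and 10.5, 31.2, 35.8, 15.4 and 52.7 CPM in DMM 1 to 5. DMM 5 was again highest, control 3 lay within the range of the upper DMM libraries, and DMM 4, just below control 1, kept the groups overlapping even over the 8 libraries. Its mean was 16.0 ± 10.9 (SD, n = 5) CPM in controls and 29.1 ± 16.9 (SD, n = 5) CPM in DMM kidneys. The log2 fold change of 0.86 (standard error 0.49) had an adjusted p of 0.530 from edgeR over all 10 libraries. Over the 8 libraries it was 1.58 (standard error 0.37, adjusted p = 0.0375 from edgeR), the largest of the 6. That call was lost when any 1 of the 8 libraries except DMM 4 was left out, with adjusted p-values up to 0.125 from edgeR. In settings over the 8 chosen after the values were seen, it held with DESeq2 or RLE size factors. With library size alone it was lost (adjusted p = 0.0592 from edgeR).

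Acsm3, first described as a gene linked to hypertension in rats, had the least even pattern. Its level was 68.0, 63.6, 232, 24.2 and 40.1 CPM in controls 1 to 5 and 49.3, 143, 27.8, 85.2 and 156 CPM in DMM 1 to 5. Control 3 was highest, and DMM 3, which lay above controls 1, 2, 4 and 5 for each of the other 5 genes, lay near the lowest control here. The means were 85.6 ± 83.8 (SD, n = 5) CPM in controls and 92.3 ± 56.4 (SD, n = 5) CPM in DMM kidneys. The log2 fold change was 0.11 (standard error 0.62, adjusted p = 0.950 from edgeR) over all 10 libraries, a difference far inside the spread between mice. It was 1.07 (standard error 0.51, adjusted p = 0.264) over 8. Without DMM 3 as well, the remaining 7 libraries gave 1.39 (standard error 0.36, adjusted p = 0.0904 from edgeR), a set chosen after the values were seen.

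Glyat encodes the enzyme that joins glycine to benzoyl-CoA and other acyl-CoAs. Its level was 85.4, 95.2, 155, 57.9 and 83.6 CPM in controls 1 to 5 and 88.3, 177, 161, 150.1 and 194 CPM in DMM 1 to 5. DMM 2 to 5 formed a narrow group above 4 of the controls, control 3 lay among them, and DMM 1 lay among the controls. The means were 95.4 ± 36.1 (SD, n = 5) CPM in controls and 154 ± 40.4 (SD, n = 5) CPM in DMM kidneys, and the log2 fold change was 0.69 (standard error 0.27). The unadjusted p-value of 0.0247 from edgeR was the smallest of the 6 over all 10 libraries, and its adjusted p was 0.408. Over the 8 libraries Glyat rose from 80.5 ± 15.9 to 170.5 ± 19.3 (SD, n = 4) CPM, by 1.08 on the log2 scale (standard error 0.17), and its adjusted p from edgeR was 0.00808.

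Keg1, named as a kidney-expressed gene, encodes a protein of the same transferase family. Its level was 203, 238, 576, 141 and 187 CPM in controls 1 to 5 and 223, 405, 465, 397 and 583 CPM in DMM 1 to 5. Control 3 nearly matched DMM 5, the highest library, and DMM 1 lay between controls 1 and 2. The means were 269 ± 175 (SD, n = 5) CPM in controls and 415 ± 130.2 (SD, n = 5) CPM in DMM kidneys. Keg1 thus had a log2 difference of 0.62 (standard error 0.37) and an adjusted p of 0.537 from edgeR. Over the 8 libraries Keg1 rose from 192 ± 40.4 to 463 ± 85.7 (SD, n = 4) CPM, by 1.27 on the log2 scale (standard error 0.19), with an adjusted p of 0.00757 in edgeR. The calls of Glyat and Keg1 held in all 8 sets that left out 1 of these libraries, with edgeR adjusted p-values of at most 0.0394. All of these sets also lack control 3 and DMM 1. With 1 of all 10 libraries left out, neither gene was called (smallest adjusted p = 0.0962 and 0.264 from edgeR).

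The values of Acsm2, Glyat and Keg1 did not overlap between groups over the 8 libraries, 3 of 6 genes where 9.40% of tested genes had every DMM value above every control value. Over all 10 libraries, 0 of 6 did so, against 0.794% of tested genes. Left out of the 8 were control 3, the highest control in each of the 6 genes, and DMM 1, the lowest DMM library in all but Acsm3. The lack of overlap and the calls over the 8 libraries therefore depend on that choice.

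**Figure D1:**
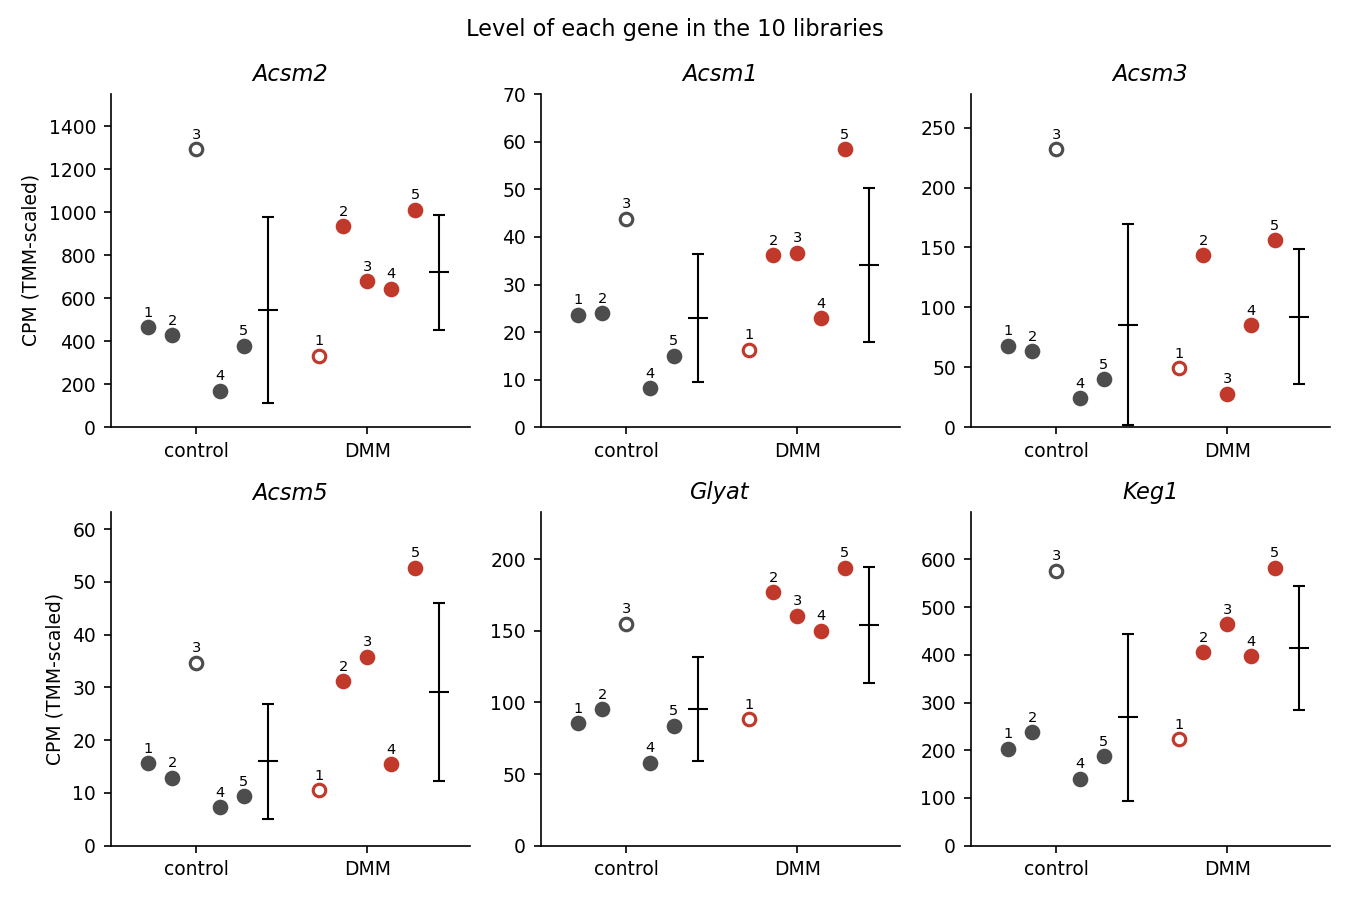
TMM-scaled CPM (vertical axis, linear from 0) of the 6 genes in each of the 5 control (grey) and 5 DMM (red) libraries, numbered by replicate, with the group mean and SD as a bar at the right of each group. Open circles mark control 3, above every other control in each gene, and DMM 1, below every other DMM library in each gene but Acsm3, which is lowest in DMM 3 at 27.8 CPM.

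Compared per length, the order of the 6 genes was similar between kidneys, apart from DMM 3, where Acsm3 ranked last, below Acsm1 and Acsm5. Mean FPKM over all 10 libraries was 84.7 for Acsm2, 59.9 for Keg1, 25.9 for Glyat, 17.9 for Acsm3, 13.0 for Acsm1 and 5.90 for Acsm5. Acsm2 ranked first in 9 of 10 libraries, and in control 4 it was passed by Keg1. The FPKM ratio of Acsm2 to Keg1 within a library was 0.44 ± 0.32 (SD, n = 10) on the log2 scale, so that these neighbours differ by little more than the spread. Keg1 was above Glyat in all 10 libraries, by 1.15 ± 0.22 (SD, n = 10) on the log2 scale. Glyat was above Acsm3 in 9 libraries and below it in control 3, and Acsm3 was above Acsm1 in all but DMM 3. The log2 ratios of these 2 pairs were 0.79 ± 0.81 and 0.30 ± 0.73 (SD, n = 10), no larger than their spread. Acsm1 was above Acsm5 in all 10 libraries, by 1.23 ± 0.29 (SD, n = 10) on the log2 scale.

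The summed FPKM of the 6 genes varied widely between mice. It was 144, 146, 381, 70.0 and 118 in controls 1 to 5 and 122, 286, 238, 218 and 351 in DMM 1 to 5. Control 4 was lowest and control 3 highest, so the span within the control group covered that of the DMM group. The composition of this sum moved less. Acsm2 made up 32.5% to 45.3% of it, Keg1 24.7% to 35.3% and Glyat 8.44% to 17.2% over the 10 libraries. Acsm1 made up 4.78% to 7.62% and Acsm5 1.84% to 3.95%. In control 4, the library with the lowest sum, Acsm2 had its smallest share and both transferases their largest. In control 3, with the highest sum, Acsm2 and Acsm3 had their largest shares and Glyat its smallest. The ratio of the 4 synthetases to the 2 transferases in summed FPKM was accordingly lowest in control 4 (0.905) and highest in control 3 (1.87).

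Acsm3 departed from this composition in a single kidney. Its share of the summed FPKM was 9.50%, 8.78%, 12.2%, 6.97% and 6.82% in controls 1 to 5 and 8.12%, 10.1%, 2.36%, 7.84% and 8.99% in DMM 1 to 5. The ratio of Acsm3 to Acsm2 FPKM was between 0.159 and 0.270 in 9 libraries and 0.0618 in DMM 3. DMM 3 had 491 reads on Acsm3. Its total count and its levels of the other 5 genes were within the range of the remaining DMM libraries. The cause of the low Acsm3 value was not tested.

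Levels were then set against proximal tubule markers of the same library, since in bulk kidney RNA fewer proximal tubule cells and less RNA per cell cannot be told apart. The 16 markers, among them the endocytic receptor Lrp2 and the phosphate carrier Slc34a1 (the most abundant, at a mean of 159 FPKM), were all detected and tested. Their summed FPKM was 657, 664, 1555, 302 and 521 in controls 1 to 5 and 473, 1197, 1399, 952 and 1684 in DMM 1 to 5. This follows the order of the 6 genes closely, with control 3 high, control 4 lowest and DMM 1 among the controls. In DMM 4 the markers disagreed, as Lrp2 (2504 CPM) and Cubn (526 CPM) were higher there than in any other library. Slc5a2 (36.4 CPM), Fbp1 (59.7 CPM) and Slc34a1 (474 CPM) lay within the range of controls 1, 2, 4 and 5. Levels relative to the markers were not computed without DMM 4. Over all 10 libraries edgeR called 0 of the 16, and 3 passed at an unadjusted p with the fold threshold, with a median log2 fold change of 0.60. Over the 8 libraries 8 of 16 were called higher, with a median of 1.16, and without DMM 4 as well 14 were, with a median of 1.27. The medians over the 10 and the 8 libraries were close to those of the 6 Acsm and transferase genes. Of all tested genes, 2.73% were called higher over the 8 and 6.71% without DMM 4. Control 3 and DMM 1, left out of the 8, were described above by these same markers. The counts over the 8 libraries therefore depend on that choice and are no separate result.

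Relative to the mean log2 CPM of these markers, Glyat was -0.47 ± 0.28 (SD, n = 5) in controls and -0.45 ± 0.28 (SD, n = 5) in DMM kidneys. Keg1 was 0.91 ± 0.22 in controls and 0.96 ± 0.20 (SD, n = 5) in DMM kidneys on the same scale. Acsm2 was 1.81 ± 0.28 and 1.72 ± 0.26, and Acsm1 -2.66 ± 0.19 and -2.71 ± 0.24 (SD, n = 5). In each of these 4 genes the difference between the groups was smaller than the SD of either group, also over the 8 libraries, where Glyat had the largest difference, -0.16. Acsm5 was -3.18 ± 0.21 in controls and -3.03 ± 0.37 (SD, n = 5) in DMM kidneys, a difference of 0.16 over 10 libraries and 0.24 over 8. Acsm3 was between -1.38 and -0.24 in controls and between -1.11 and -0.68 in DMM 1, 2, 4 and 5. In DMM 3 it was -3.30, the lowest of the 10 libraries by a wide margin. With S1 segment markers as the reference, differences between groups over all 10 libraries were 0.11 for Glyat, 0.14 for Keg1 and 0.24 for Acsm5. They were 0.04 for Acsm1, -0.00 for Acsm2 and -0.33 for Acsm3. Only the difference of Acsm5 exceeded the SD of both groups, 0.18 in controls and 0.20 in DMM kidneys. The part of proximal tubule content in the differences between the groups was not tested.

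**Figure D2:**
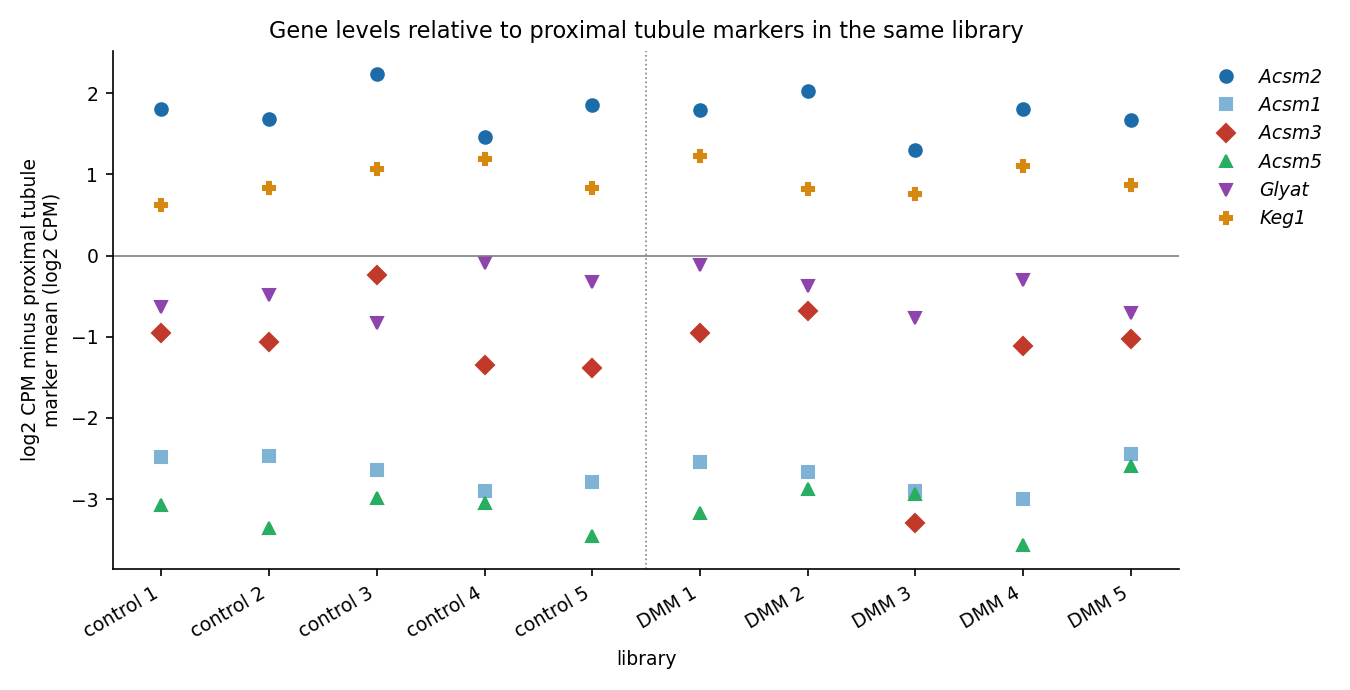
Log2 CPM of each gene minus the mean log2 CPM of 16 proximal tubule markers (vertical axis) in each control and DMM library (horizontal axis), where 0 is the level of the marker mean. Acsm3 in DMM 3, at -3.30, lies far below its values in the other libraries, and the other 5 genes vary less.

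The 6 genes varied together across mice. Over the 10 libraries, the Pearson r of log2 CPM was 0.90 to 0.97 in the 10 pairs without Acsm3 (Spearman rho 0.87 to 0.95), and 0.89 to 0.97 for deviations from the group means. The points share their libraries, and the part of proximal tubule content was not tested, so these values are descriptions. The 5 pairs with Acsm3 had r of 0.65 to 0.83, and 0.92 to 0.98 without DMM 3. With the mean of the proximal tubule markers, r over the 10 libraries was 0.97 for Acsm1 and Keg1, 0.96 for Acsm2, Acsm5 and Glyat, and 0.67 for Acsm3.

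Among all tested genes outside the family, those whose log2 CPM followed each gene most closely over the 10 libraries all lay on another chromosome than the gene itself. Glyat was closest to the sulfate carrier Slc26a1 (r = 0.998, rho = 0.988), the acetyl-CoA thioesterase Acot12 (r = 0.994) and the coenzyme A hydrolase Nudt19 (r = 0.992). Acsm5 was closest to Galnt11 (r = 0.996), Hibadh, an enzyme of valine breakdown (r = 0.993), and Bhmt2 (r = 0.991). Keg1 was closest to Slc16a4 (r = 0.990), C8a (r = 0.989) and Sypl2 (r = 0.985), Acsm1 to Ugt3a2, Hnf4aos and the inositol oxygenase Miox (r = 0.989, 0.988 and 0.987), and Acsm2 to the carboxylesterases Ces1d and Ces1f and to Aadac (r = 0.984, 0.983 and 0.980). Acsm3 had looser partners, Pzp (r = 0.930), Gm6300 (r = 0.910) and the organic anion carrier Slc22a30 (r = 0.878).

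The 6 genes lie in 2 clusters, all on the plus strand of the mm10 assembly. Acsm5 (chr7:119519463-119545551), Acsm2 (chr7:119554340-119600690), Acsm1 (chr7:119607026-119662515) and Acsm3 (chr7:119760923-119787513) follow each other within 268 kb. Glyat (chr19:12633308-12653911) and Keg1 (chr19:12695786-12719902) lie within 86.6 kb. Among the tested neighbours of the Acsm cluster, the antisense genes Gm19950 and Gm45792 inside Acsm1 had larger differences over the 8 libraries than any of the 6 genes (1.70 and 1.87), and 0.95 and 1.27 over all 10. Without DMM 4 as well, Gm45792 had 1.39, below Acsm5 at 1.82, and Gm19950 had 1.87. Between Acsm1 and Acsm3, Thumpd1 and Ppp1ccb had log2 fold changes of -0.03 and -0.00 over 10 libraries and -0.04 and -0.01 over 8. Umod, the uromodulin gene of the thick ascending limb, which lies before Acsm5, had 0.36 over 10 and 0.62 over 8 (adjusted p = 0.389 from edgeR). It was lowest in DMM 4, at 1001 CPM, and without that library it was called, at 0.90 (adjusted p = 0.00661). The remaining genes within 200 kb (Gp2, Pdilt, Eri2, Rexo5, Dcun1d3 and Lyrm1) were between -0.11 and 0.31 over 10 libraries, where Acsm3 itself had 0.11, and between -0.10 and 0.51 over 8, below all 6 genes. Around Glyat and Keg1, the macrophage gene Mpeg1 had -0.62 over 10 and -0.86 over 8 (adjusted p = 0.0486), Gm6545 had -1.30 and -2.13 (adjusted p = 0.00877 over 8), and Lpxn -0.73 and -0.99 (adjusted p = 0.0556 over 8). Gm47242, with at most 41 reads in a library, had -1.09 and -1.56, A330040F15Rik -0.33 and -0.38, Fam111a -0.28 and -0.41, Dtx4 -0.12 and -0.21, and Zfp91 0.28 and 0.36. The difference of Zfp91 came from DMM 4 alone (384 CPM, against 158 to 174 in the other 9 libraries), and without DMM 4 the 8-library value was -0.06. Without DMM 4 the falls of Gm47242 (-4.09), Fam111a (-0.99) and Lpxn (-0.78) were called, with adjusted p-values of 0.00174, 0.00174 and 0.00467 from edgeR, and A330040F15Rik had -0.13 and Dtx4 -0.39. Gm15962, antisense to Keg1, had 0.23 and 0.77 (adjusted p = 0.163 over 8), and 0.44 without DMM 4.

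**Figure D3:**
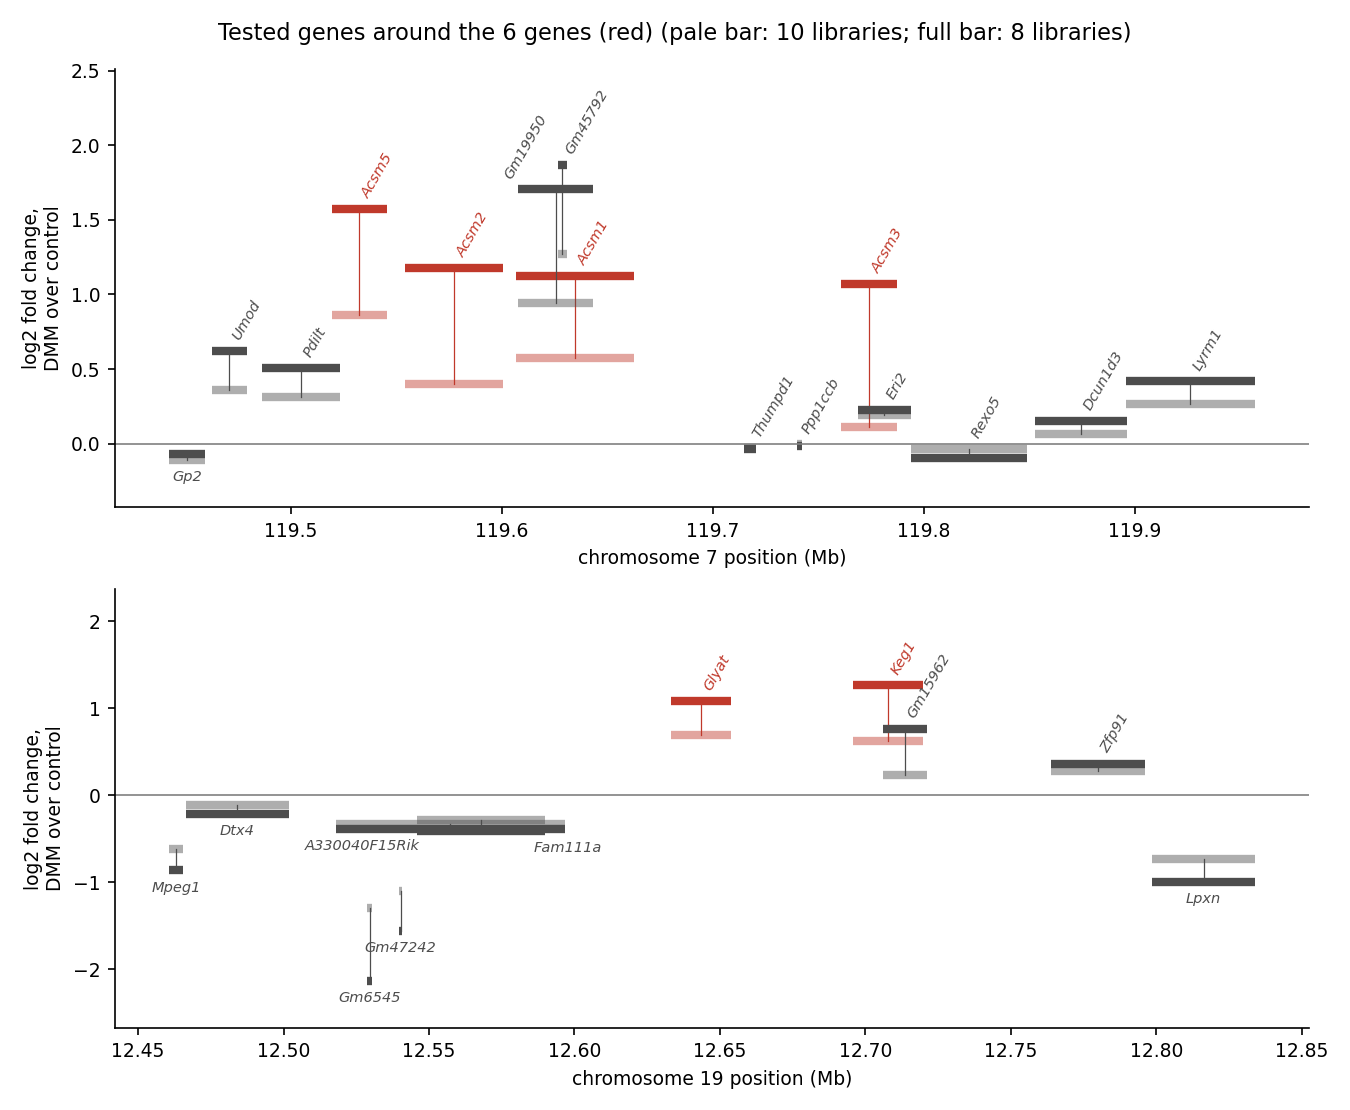
Position of each tested gene (horizontal axis, Mb) and its log2 fold change of DMM over control (vertical axis) around the Acsm cluster on chromosome 7 and the Glyat and Keg1 cluster on chromosome 19, over all 10 libraries (pale bars) and over 8 (full bars). The 6 genes (red) lie above 1 on the vertical axis over the 8 libraries, as do the antisense genes Gm19950 and Gm45792 inside Acsm1.

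Several of the 6 genes overlap another gene on the opposite strand, and the sources used here do not say whether counting used strand. Of all 50-base stretches in GENCODE transcripts of Acsm3, 34.0% are also held, on the opposite strand, by transcripts of Eri2, an exonuclease gene. Eri2 had 9.46 CPM in DMM 3, where Acsm3 was low, and between 8.27 and 20.6 CPM in the other 9 libraries, the highest in DMM 4, without which its 8-library log2 fold change of 0.23 was -0.12. Keg1 shares 6.07% of its stretches with the antisense gene Gm15962, which had at most 8.55 CPM, and Acsm5 shares 1.58% with Pdilt, at most 5.61 CPM. Acsm1 overlaps the antisense genes Gm19950 and Gm45792 by position but shares 0 stretches with them. The differences of these antisense genes over the 8 libraries had adjusted p-values of 0.00960 and 0.0192 from edgeR. Gm45792 was highest in DMM 4, at 46.0 CPM, and without that library its log2 fold change was 1.39. Acsm2 shares 0.576% of its stretches with many genes, and Glyat shares none. No stretch was shared between any pair of the 6 genes, so that reads of this length from their transcripts can be told apart.

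Because the 6 genes moved together, the letters before their transcription starts were searched for 4 short motifs on both strands, in RefSeq windows of 250 bases before to 50 bases after each start (GRCm38.p6, the mm10 assembly). All 6 genes matched, with 7 starts, since Acsm2 has 2. The letters GTTAAT, the core bound by HNF1, were found in 1 of these 7 windows (Acsm2) and in 7.10% of 32851 windows of all genes. AGGTCA, the repeat unit bound by many nuclear receptors, was found in 1 window (Acsm1), at -107 to -102 on the minus strand, against 16.3% of all windows. TATAAA was found in 1 window (Acsm2, the same start as GTTAAT), against 13.6%, and CAAAGTCCA, an HNF4 motif, in 0 windows, against 0.475%. A match is a run of letters only, and the windows do not share a motif among the 4 searched. The 250 bases before the start are shown for the genes in which no annotated exon falls in that window, which are Acsm2 (chr7:119554090-119554339), Acsm3 (chr7:119760673-119760922) and Glyat (chr19:12633058-12633307), all read 5′ to 3′ on the plus strand. Capitals mark the GTTAAT match, which reads ATTAAC on this strand at -166 to -161, and the TATAAA match at -28 to -23 in Acsm2, and none are marked in the others.
Acsm2: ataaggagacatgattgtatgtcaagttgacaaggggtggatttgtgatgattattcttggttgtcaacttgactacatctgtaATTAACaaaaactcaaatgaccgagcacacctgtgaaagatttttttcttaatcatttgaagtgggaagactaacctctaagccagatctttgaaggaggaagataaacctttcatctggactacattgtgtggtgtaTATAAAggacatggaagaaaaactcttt
Acsm3: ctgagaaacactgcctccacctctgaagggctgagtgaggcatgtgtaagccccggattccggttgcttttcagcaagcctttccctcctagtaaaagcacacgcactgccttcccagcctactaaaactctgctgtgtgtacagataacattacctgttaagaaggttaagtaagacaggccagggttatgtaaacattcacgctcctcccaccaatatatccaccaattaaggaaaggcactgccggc
Glyat: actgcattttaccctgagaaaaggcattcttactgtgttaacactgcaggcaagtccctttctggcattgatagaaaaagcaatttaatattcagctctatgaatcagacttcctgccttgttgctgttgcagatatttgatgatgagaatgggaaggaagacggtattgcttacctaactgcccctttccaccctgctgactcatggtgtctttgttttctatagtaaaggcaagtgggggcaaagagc

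The other genes of this pathway were taken from gene lists, and over all 10 libraries edgeR called 0 genes of any of these lists. In what follows, log2 fold changes are given over the 8 libraries and then over all 10, and numbers called over the 8 are followed by those without DMM 4 as well, a set chosen after the values were seen. Of all tested genes, 2.73% were called higher over the 8 libraries and 6.71% without DMM 4. Both sets lack control 3 and DMM 1, so the numbers called depend on that choice and are no separate result. Of 21 other acyl-CoA synthetases, 17 were tested and 1 was called over the 8 libraries, the long-chain synthetase Acsl1 (0.91 and 0.62), and 5 without DMM 4, among them Slc27a2. The list medians were 0.34 and 0.19. Slc27a2, the most abundant at a mean of 230 FPKM, had 1.28 and 0.73, Slc27a4 0.27 and 0.20, and Acsl5 -0.04 and -0.01. Acsl4 had 0.68 and 0.60, carried by DMM 4 (367 CPM, against 98.5 to 134 in the other 9 libraries), and 0.06 over the 8 without it. Acsm4, the remaining Acsm gene in the table, had at most 4 reads in a library and was not tested. Of 5 other amino acid N-acyltransferases, 3 were tested. Acnat2 and Acnat1, of which the latter can join taurine to long-chain acyl groups, were called over the 8 libraries (1.78 and 1.26, adjusted p = 0.0103 and 0.0489 from edgeR) and also without DMM 4, and had 1.31 and 0.88 over all 10. The bile acid transferase Baat had 0.72 and 0.36 and was not called, and Glyatl3 and Gm4952, with at most 5 and 12 reads in a library, were not tested.

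Lists for the substrates and products of these enzymes had positive medians over both sets of libraries. Beside each count below stand the shares of all tested genes called higher, 2.73% over the 8 libraries and 6.71% without DMM 4. These counts too depend on leaving out control 3 and DMM 1. At an unadjusted p with the fold threshold over all 10 libraries, 1.91% of tested genes passed higher. In these lists 1 of 13 coenzyme A (and 1 lower), 1 of 13 glycine and 0 of 21 beta oxidation genes did. So did 4 of 12 thioesterase and 1 of 11 carrier genes. In coenzyme A synthesis and turnover, 2 of 13 tested genes were called higher over the 8 libraries (medians 0.36 and 0.24), and without DMM 4 5 higher and 1 lower. The 2 were Pank1, the kinase that starts coenzyme A synthesis (1.35 and 0.79), and Nudt19 (1.18 and 0.71), while the pantetheinase gene Vnn3 had -2.29 and -1.53 and was called only without DMM 4 (-1.88). In glycine supply and cleavage, 6 of 13 were called, and 10 without DMM 4 (medians 0.71 and 0.37). Among the 6 were the cleavage enzyme genes Gldc (1.57 and 1.04), Amt (0.71 and 0.47) and Dld (0.59 and 0.37) and the carrier Slc6a18 (1.28 and 0.76), whereas Gatm, with 0.87 and 0.31, was called only without DMM 4. In medium-chain and short-chain beta oxidation, 3 of 21 were called, and 16 without DMM 4 (medians 0.53 and 0.33). The carnitine acyltransferase Crat had 0.71 and 0.47, Hadhb 0.49 and 0.31, Hadha 0.30 and 0.23, Etfa 0.61 and 0.33, and the medium-chain dehydrogenase Acadm 0.99 and 0.46 (1.25 without DMM 4, where it was called). Of 12 tested acyl-CoA thioesterases, 4 were called, and 6 without DMM 4 (medians 0.52 and 0.30). Among the 4 were Acot12 (1.53 and 0.99), Acot3 (2.15 and 1.61) and Acot2 (0.82 and 0.65). Acot13 had 0.60 and 0.31 and Acot9 0.30 and 0.28. Of 11 organic anion carriers, which move hippurate and related acids across the tubule, 5 were called, and 9 without DMM 4 (medians 1.62 and 0.80). Abcc2 had 1.40 and 0.89, Slc17a1 1.42 and 0.80, Slc13a3 2.11 and 1.19, and the urate carrier Slc22a12, which was called only without DMM 4 (2.10), 1.84 and 0.91.

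Over all 10 libraries, edgeR called 0 genes of any list of markers of proximal tubule segments, of other cells or of interferon response. Calls of DESeq2 are not given per list. At an unadjusted p with the fold threshold over all 10 libraries, 12 of 12 interferon response genes passed lower (median -1.84). So did 4 of 6 macrophage and 4 of 6 T cell markers, and 678 of all 16505 tested genes. Higher were 6 of 8 tested hepatocyte, 1 thick ascending limb and 1 collecting duct marker, against 1.91% of tested genes. Markers of several lists also differed over the 8 libraries, and the part of these genes in the values of the 6 was not tested. Over the 8, 452 of 16550 tested genes (2.73%) were called higher and 590 lower. Called higher were 2 of 4 markers of proximal tubule segment S1, 2 of 5 of segment S3, 3 of 5 of the thick ascending limb, 2 of 4 tested of the distal convoluted and connecting tubule, and 2 of 8 of the collecting duct. Called lower were 2 of 6 macrophage, 1 of 6 T cell and 2 of 7 fibroblast markers and 12 of 12 interferon response genes, and 0 of the injured tubule, podocyte, endothelium and B cell lists were called in either direction. Without DMM 4 these numbers were higher in several lists, with 3 in S1, 4 in S3, 5 in the thick ascending limb and 5 in the collecting duct called higher, and 4 macrophage, 3 T cell, 4 fibroblast and 1 injured tubule marker (Vcam1, -0.90) called lower, while distal tubule, podocyte, endothelium, B cell and interferon response genes kept theirs. Of all tested genes, 6.71% were called higher without DMM 4, and the number called lower is not given here. DMM 1, in which the interferon response genes were not low, is left out of both sets. The calls of these genes therefore depend on that choice and are no separate result. Hepatocytes also express Acsm genes and Glyat. The summed FPKM of 12 hepatocyte markers was 47.8 to 77.6 in controls and 59.3, 189, 176, 98.4 and 272 in DMM 1 to 5. Among them, albumin (Alb) had at most 25 reads in a library, a mean of 0.261 FPKM, and Apoa1, Serpina1c, Ahsg and Tat had at most 11, 16, 25 and 2 reads. The most abundant was the fibrinogen gene Fgg, at a mean of 44.0 FPKM, which rose by 2.02 on the log2 scale over the 8 libraries (1.72 over all 10), and 5 of the 8 tested genes of the list were called higher, or 7 without DMM 4.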

How the data were processed

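Kidney libraries of 5 control and 5 DMM mice were compared, 1 library per mouse. The authors aligned reads to mm10, with HISAT2 2.0.5 named in the submitters' processing notes, and deposited the read count of each gene without normalization. The counting tool, annotation release and use of strand are not given in the sources used here. The deposited FPKM values divide counts by gene length and library size. The deposited signal columns are group means of counts divided by size factors, and were used only to find, by least squares, which libraries they weight. The log2 fold changes and p-values that the authors deposited, from DESeq2, were not used.

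Genes kept by filterByExpr were scaled by TMM and tested with edgeR 4.0.16 (R 4.3.3) in a quasi-likelihood F test without covariates, and DESeq2 1.42.0 was an alternative. P-values were adjusted over all tested genes, and calls required both an adjusted p below 0.05 and a difference of more than 1.5-fold. The standard error is the log2 difference divided by the square root of F. Log2 CPM used a prior count of 2. The members and lists were chosen with earlier results of these data known. Named genes were the 6 and every gene of pathway lists of 6 or fewer. In longer pathway lists they were the 3 of smallest p over all 10 libraries and the 2 of highest FPKM. Also named were all tested genes within 200 kb of the clusters and the 3 genes of highest Pearson r per gene. Single marker genes, among them Vcam1, were named outside this rule. Promoters were taken from RefSeq (GRCm38.p6) and transcripts from GENCODE, and shared stretches were exact matches of 50 bases. The steps were tested on simulated data. Reads have no molecular identifiers, so they are not independent molecules.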

Additional observations from a re-analysis of the deposited data

Results flagged for a closer look

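Of 36 groups of 5 libraries checked for a library far from the rest, over 3 quantities of the 6 genes, 5 held one, and chance gives about 1 in 20 such groups. Control 3 was far above the other controls in Acsm2 (1293 CPM), Acsm3 (232 CPM) and Keg1 (576 CPM). These 3 are 1 library and genes that vary together, so they are not separate observations. DMM 3 was far below the other DMM libraries in the share of Acsm3 in the summed FPKM of the 6 genes (2.36%) and in the log2 level of Acsm3 relative to the proximal tubule markers (-3.30). These 2 values come from the same count of Acsm3. DMM 1 is not among them, because its values were low without standing far from the next DMM library.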

How the results depend on the processing

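Over all 10 libraries the 6 genes kept the sign of their log2 fold change and stayed uncalled with RLE size factors, library size alone, no low count filter, CPM of at least 1 in 5 libraries and DESeq2. DESeq2 moved the counts of all genes called from 0 to 14 higher and 36 lower. When each of the 10 libraries was left out in turn, between 0 and 50 genes were called higher and between 0 and 436 lower, the highest of both without DMM replicate 1, and 0 of the 6 genes were called. In these sets the log2 fold change of Acsm3 ran from -0.17 to 0.91 and was below 0 without control replicate 4 (-0.13), control replicate 5 (-0.07), DMM replicate 2 (-0.10) or DMM replicate 5 (-0.17). The other 5 stayed above 0, from 0.29 to 0.95 for Acsm1, 0.17 to 0.998 for Acsm2, 0.54 to 1.36 for Acsm5, 0.55 to 0.94 for Glyat and 0.46 to 1.11 for Keg1, each highest without control replicate 3. The 8 libraries gave 452 genes higher and 590 lower, and called Acsm5 (1.58), Glyat (1.08) and Keg1 (1.27). Further settings within the 8 libraries were chosen after seeing the data. DESeq2 there gave 749 higher and 911 lower and called Acsm1 (1.13), Acsm2 (1.18), Acsm5 (1.58), Glyat (1.08) and Keg1 (1.27). RLE size factors gave 463 and 573 and called Acsm2 (1.19), Acsm5 (1.58), Glyat (1.09) and Keg1 (1.28). Library size alone gave 276 and 700 and called Glyat (0.97) and Keg1 (1.16). When each of the 8 was left out in turn, the genes called higher ran from 131 (without control 5) to 1129 (without DMM 4). Without DMM 4, 5 of the 6 genes were called where 6.71% of all tested genes were, against 2.73% over the 8. With 4 mice a group the test has few residual degrees of freedom, and the cause of these changes was not tested. The labels do not say whether replicate numbers pair the mice, and correlations over 5 numbers cannot exclude it. The correlation of same-numbered deviations from the group means was -0.06, 0.08, 0.34, 0.12 and -0.22, and 1 of 5 controls correlated best with its own number. With the replicate number as a block, 0 genes were called higher or lower over all 10 libraries, and 0 over the 8, where the adjusted p-values of the 6 genes were 0.0825 to 0.169 from edgeR. Their log2 fold changes with that block over the 8 were 1.35 for Acsm1, 1.49 for Acsm2, 1.65 for Acsm3, 1.61 for Acsm5, 1.16 for Glyat and 1.30 for Keg1, each above the value without a block. That fit rests on 3 pairs (replicates 2, 4 and 5), since control 1 and DMM 3 have no partner among the 8, so it does not use DMM 3, where Acsm3 was low. All 6 passed at an unadjusted p, as did 790 of all tested genes (4.77%).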
